A study of Mus musculus with 24 samples.

Results

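The libraries described here are those of osteoblast (OB) cultures collected on day 21 of osteogenic differentiation, 4 from heterozygous (Het) G610C mice and 4 from wild-type (WT) mice, chosen by their labelled genotype and day. They are 8 of the 24 libraries of the series, the other 16 being of the same genotypes at days 8 and 14. Het animals carried 1 copy of a knock-in *Col1a2* allele in which a glycine of the procollagen α2(I) triple helix is replaced by a cysteine (strain B6.129(FVB)-Col1a2tm1Mcbr/J), and WT animals carried none. Both were on the C57BL/6J background. Cells were released from the parietal bones of several pups of 4 to 5 days per genotype, pooled and seeded in wells in osteogenic medium with ascorbate phosphate, the treatment labelled for all 8 cultures. The study describes 2 experiments with different litters and seeding densities, 1 of them with an expansion at lowered oxygen after seeding. The labels do not tie a replicate number to either experiment. The study describes 3 wells per genotype and day where the labels give 4 replicates, so what separates the replicates is not fully known. Wells of 1 preparation share a pool of pups, so p-values below measure the spread between these wells. Polyadenylated RNA was sequenced, and the comparison asks which transcripts differed between Het and WT OB cultures 21 days after seeding.

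OBs secrete type I collagen, a triple helix of proα1(I) and proα2(I) chains that folds in the endoplasmic reticulum (ER) with the help of hydroxylases, isomerases and the chaperone HSP47. A glycine substitution delays this folding, and G610C is used as a model of osteogenesis imperfecta. Cells answer several kinds of distress through the integrated stress response (ISR), in which phosphorylated eIF2α lowers general translation but favours the factors ATF4, ATF5 and CHOP, whose targets supply amino acids and charged tRNAs. ER chaperones and mitochondrial chaperones have unfolded protein responses (UPRs) of their own.

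Depth ran from 24234653 to 54863705 counts in WT and from 23618848 to 53976393 in Het libraries, with replicate 1 the shallowest of each genotype. The replicate 1 libraries also stood apart in expression. The first principal component, with 58.9% of the variance, separated them from the other 6, and the second, with 24.2%, placed all Het libraries on one side of all WT libraries. On the second, however, WT replicate 1 (5.9) lay nearer to the Het libraries (9.2 to 29.3) than to the other WT libraries (−25.2 to −20.7). The OB markers *Col1a1*, *Runx2*, *Sp7* and *Ibsp* were counted in every library, *Col1a1* alone taking 5.11 to 7.44% of counts. Het replicate 4 carried 3.66% of its counts at 3 ribosomal RNA loci against 0.153 to 0.385% in the other 7. The 4 Y-linked genes examined had log2 differences of −0.87 to −0.64 (Het minus WT) and *Xist*, the X inactivation transcript, of 0.23, with none called, although all 4 Y-linked genes were called lower when replicate number was a block. The sex of the pups is not given in the labels, and the part of the Y-linked difference in other results was not tested. A library's scale was the geometric mean count of its housekeeping genes *Actb*, *Actg1*, *Sdha* and *Mrfap1*, and a count over that scale is the relative quantity (RQ) of the study. Normalised read counts below are RQ times the average scale of the 8 libraries.

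Of 18682 genes with enough counts to be tested, 265 (1.42%) were higher and 103 (0.551%) lower in Het at an adjusted p below 0.05 in edgeR's quasi-likelihood test, or 1.97% in all. The groups did not overlap for 367 of these 368 genes, where 12.5% of all tested genes had non-overlapping groups, 7.74% with Het higher and 4.77% with Het lower. Changes were mostly small. The median absolute log2 fold change of called genes was 0.62, 71 genes rose and 20 fell by more than 1 on the log2 scale, and 167 changed by less than 1.5-fold. All 368 had the same sign in the replicate 1 pair and in replicates 2 to 4, which groups without overlap fix in advance. With replicate number as a block, all 368 were called again, and the totals rose to 999 higher (5.35%) and 851 lower (4.56%), or 9.9% in all. Both checks use the libraries that chose the genes, so neither is independent support. For counts in gene groups below, the shares to set beside them are 1.42% higher and 0.551% lower without the block. For counts with the block they are the shares called with it. Of all tested genes 47.4% had a positive difference. With a covariate for replicate 1 against the others the totals were 1676 (8.97%) and 1563 (8.37%), or 17.3%. Scaling by TMM gave 228 higher and 259 lower, DESeq2's size factors 268 and 260, and total counts 856 and 254, so the balance between rises and falls depends on the scale. Without the replicate 1 pair the totals were 2186 and 2904, while without replicate 2, 3 or 4 they were 7 and 1, 4 and 0, and 5 and 0, and of the 73 called genes examined singly 8, 4 and 4 kept their call.

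The rise of *Trib3*, an ATF4- and CHOP-induced pseudokinase that feeds back on ATF4, had the smallest p of all genes. Normalised counts of *Trib3* (ENSMUSG00000032715.9, chr2:152337422-152344032, minus strand, GRCm38) were 511, 666, 584 and 617 in WT replicates 1 to 4 and 3428, 4003, 4421 and 3507 in Het. The lowest Het culture was over 5 times the highest WT culture, and the log2 fold change was 2.69 ± 0.11 (SE, adjusted p = 3.55e-05). *Trib3*, *Cdsn*, *Cox6a2* and *Ddit3* were the 4 genes, of 73 called genes examined singly, that were called however the counts were scaled and whichever replicate or library was left out.

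Larger rises were seen for genes with little expression in WT cultures. *Car6*, a secreted carbonic anhydrase, was at 7.92, 1.71, 7.76 and 4.95 in WT and 109.9, 164, 197 and 153 in Het (log2 fold change 4.87 ± 0.39 (SE), adjusted p = 0.00177). *Ostn*, which encodes the secreted peptide osteocrin, was at 0, 9.41, 11.1 and 2.48 in WT and 18.7, 217, 214 and 211 in Het (log2 fold change 4.73 ± 0.86 (SE), adjusted p = 0.0403). All Het cultures lay above all WT cultures for both genes, but *Ostn* in Het replicate 1 was far below the other 3. *Avil* (ENSMUSG00000025432.11, chr10:127000709-127020994, plus strand), which encodes advillin, an actin-severing protein of the gelsolin family, was at 127, 305, 253 and 206 in WT and 1344, 2497, 2699 and 2374 in Het (log2 fold change 3.30 ± 0.29 (SE), adjusted p = 0.00226). Replicate 1 was the lowest culture of each genotype, and the ratio within that pair, 10.6, was close to that of replicates 2 to 4, 9.91.

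The other 6 of the 10 largest rises were of varied function. They were *B4galnt2*, a glycosyltransferase (3.54 ± 0.44), *Soat2*, which esterifies cholesterol (2.91 ± 0.22), *Sspo*, a secreted protein known from the subcommissural organ (1.94 ± 0.21), *Cox6a2*, the muscle form of a cytochrome c oxidase subunit (1.82 ± 0.11), *Saa3*, an acute-phase protein (1.79 ± 0.30), and *Cdsn*, corneodesmosin of the epidermis (1.73 ± 0.12). *Cdsn* was at 1878, 2286, 2858 and 2259.7 in WT and 7786, 7816, 8346 and 6949 in Het, without overlap. *Avil*, *B4galnt2*, *Cox6a2* and *Ostn* overlap a gene of the other strand, and since the strand setting of the counting is not given in the sources used here, reads of the partners cannot be told apart.

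The largest fall was that of *Gal*, the neuropeptide galanin, with 1038, 630.4, 569.6 and 741 in WT and 245, 92.9, 96.5 and 75.1 in Het (log2 fold change −2.60 ± 0.38 (SE), adjusted p = 0.0202). The osteocalcin gene *Bglap* (ENSMUSG00000074483.2, chr3:88383501-88384464, minus strand), made by mature OBs, came next, with 16660.0, 23246, 18751 and 17275 in WT and 8061, 4109.9, 5876 and 3868 in Het (log2 fold change −1.80 ± 0.24 (SE), adjusted p = 0.0112). For both genes Het replicate 1 was the highest Het culture yet lay below every WT culture. *Bglap* was 0.484 times WT in the replicate 1 pair and 0.234 times WT in replicates 2 to 4. Its close neighbour *Bglap2* fell by 1.39 ± 0.18 on the log2 scale, and *Bglap3* had a difference of −0.48 ± 0.21 (adjusted p = 0.243), but reads of these near-identical copies may have been split among them.

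Other large falls included *Map3k21*, a kinase of the mixed-lineage family (−1.69 ± 0.33), *Foxo6*, a forkhead factor (−1.65 ± 0.22), *Baiap2l2*, which binds curved membranes (−1.55 ± 0.15), *Bcan*, the proteoglycan brevican (−1.13 ± 0.20) and *Zfp385b*, a zinc finger gene (−1.03 ± 0.12). The transcripts *BC055402* (−1.24 ± 0.20) and *Gm12519* (−1.11 ± 0.20) completed the 10. *Baiap2l2* fell more in the replicate 1 pair, to 0.242 of WT, than in replicates 2 to 4, to 0.375, the opposite order to the other 9.

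**Figure D1:**
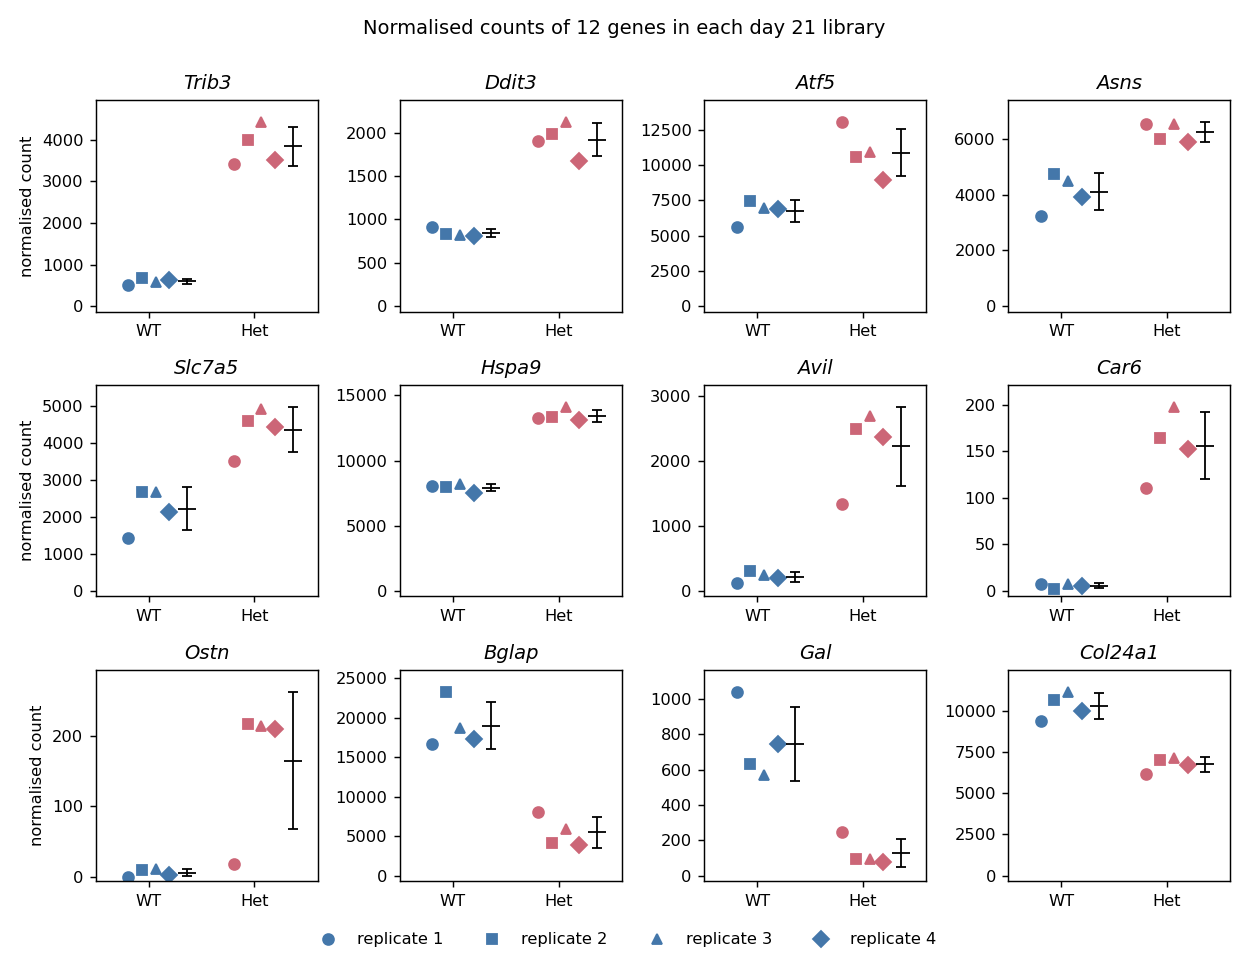
Normalised read counts of 12 genes in the 4 WT and 4 Het libraries of day 21, one panel a gene, with points for libraries, and bars for the mean and SD. Het and WT points do not overlap in any panel. Replicate 1 is the highest Het point for *Gal* and *Bglap* and the lowest for *Ostn* and *Avil*.

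Regulators of the ISR were higher in Het as a group. Of 14 measured, 9 rose and none fell, where 1.42% of all tested genes rose and 0.551% fell. All 14 had positive differences, where 47.4% of all tested genes did. Their median log2 difference was 0.57, where the median of all tested genes was −0.013. Several of these genes, *Trib3*, *Ddit3*, *Eif4ebp1* and *Eif3c* among them, are markers that the study names for its cultured cells, which include these samples. The direction of those markers here is therefore not independent evidence. Behind *Trib3* came *Ddit3*, which encodes CHOP, with 915, 827, 815 and 809.9 in WT and 1899.7, 1987, 2119 and 1674 in Het (log2 fold change 1.19 ± 0.08 (SE), adjusted p = 0.000861). The *Ddit3* groups were well separated, and the rise was similar in the replicate 1 pair (2.08-fold) and in replicates 2 to 4 (2.36-fold). A second annotated *Ddit3* entry lies within the first, and *Mars* overlaps on the other strand.

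*Atf5*, an activator named in the title of the series, was at 5629, 7427, 6972 and 6854 in WT and 13035, 10551, 10948 and 8971 in Het (log2 fold change 0.69 ± 0.13 (SE), adjusted p = 0.0399). Het replicate 1 was the highest of all and made 2.32 times its WT partner against 1.43 times in replicates 2 to 4. *Atf5* overlaps *Nup62* and *Il4i1*. The translation brake *Eif4ebp1* (log2 fold change 0.57 ± 0.07 (SE), adjusted p = 0.0102) also rose. So did *Cebpg*, a partner of ATF4 (0.47 ± 0.06), *Ppp1r15a*, which returns the phosphatase to eIF2α (0.64 ± 0.08), and *Chac1*, which degrades glutathione (0.86 ± 0.13). The stress factor *Atf3* (0.70 ± 0.12) and the initiation factor subunit *Eif3c* (0.44 ± 0.08) completed the 9.

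*Atf4* mRNA itself did not pass, with 11799, 13822, 13647 and 12036 in WT and 17239, 13607, 14779 and 14054 in Het (log2 fold change 0.22 ± 0.10 (SE), adjusted p = 0.234). Het replicate 2 lay within the WT range, replicates 3 and 4 just above it and replicate 1 well above it. *Sesn2*, *Ddit4*, *Nupr1* and *Cebpb* missed the threshold (adjusted p 0.0686 to 0.218) and were called with the replicate block, which brought the count to 13 of 14. *Nupr1*, a stress-induced chromatin protein, was higher in all 4 Het cultures than in any WT culture (log2 difference 0.57 ± 0.17, adjusted p = 0.102, and 0.0249 with the block).

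Because ATF4, CHOP and their C/EBP partners bind a shared element, promoters of the ISR regulators, amino acid enzymes, amino acid transporters and cytosolic tRNA synthetases were searched for TGATGNAA on both strands, from 250 bases before to 50 after each RefSeq start (GRCm38.p6). The letters occurred in 14 of 54 promoters of these 4 groups (25.9%, 48 genes matched) and in 3.97% of 32851 promoters of all genes, or 2.36% of those of tested genes. These groups hold known targets of the factors that bind the element, so their higher share is not a result about these cultures. Of promoters of genes called higher 4.3% held them, and of genes called lower 1.85%. The windows of 80 bases below, each written 5′ to 3′ on the strand of its gene, show where the letters lie in selected ISR genes and in the strongly changed *Avil* and *Bglap*, with capitals marking the match. *Gars*, *Tars* and *Pycr1* of these groups also held a match before the start and are not shown. They were not called in edgeR's fit (log2 differences 0.25, 0.18 and −0.07, adjusted p = 0.0949, 0.147 and 0.694). *Nupr1* and *Slc7a11*, which are shown, were not called either. The match in *Trib3* lay after its listed start, so no window of it is shown. The windows are *Atf3* (chr1:191183400-191183479, minus strand), *Chac1* (chr2:119351013-119351092, plus strand), *Nupr1* (chr7:126625537-126625616, minus strand), *Asns* (chr6:7693210-7693289, minus strand), *Got1* (chr19:43524664-43524743, minus strand), *Aars* (chr8:111033694-111033773, plus strand), *Slc7a11* (chr3:50443627-50443706, minus strand), *Avil* (chr10:127000629-127000708, plus strand) and *Bglap* (chr3:88384477-88384556, minus strand).
Atf3: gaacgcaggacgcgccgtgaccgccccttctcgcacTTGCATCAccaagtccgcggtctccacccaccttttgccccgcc
Chac1: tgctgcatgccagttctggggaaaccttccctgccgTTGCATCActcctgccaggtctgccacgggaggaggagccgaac
Nupr1: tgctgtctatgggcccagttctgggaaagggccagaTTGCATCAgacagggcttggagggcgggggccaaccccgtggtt
Asns: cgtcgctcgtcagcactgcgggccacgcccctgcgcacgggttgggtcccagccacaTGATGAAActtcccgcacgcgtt
Got1: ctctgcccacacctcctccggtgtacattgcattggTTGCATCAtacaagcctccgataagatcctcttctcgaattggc
Aars: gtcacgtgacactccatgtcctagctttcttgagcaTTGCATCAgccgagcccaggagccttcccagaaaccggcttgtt
Slc7a11: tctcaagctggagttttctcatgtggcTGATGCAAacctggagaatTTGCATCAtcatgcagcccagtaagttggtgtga
Avil: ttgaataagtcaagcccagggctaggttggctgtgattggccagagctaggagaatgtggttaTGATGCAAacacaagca
Bglap: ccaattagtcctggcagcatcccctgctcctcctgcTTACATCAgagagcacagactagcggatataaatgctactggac
*Slc7a11* held 2 matches in its window, and the match in *Avil* ended 9 bases before the listed start. The transcript of *Avil* rose and that of *Bglap* fell although both promoters hold the letters, which are a description of sequence and not of binding.

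Amino acid transporters gave 4 rises among 11 genes, where 1.42% of all tested genes rose, with a median of 0.59. With the block they gave 9 rises and 1 fall, where 5.35% and 4.56% of all tested genes were called. *Slc7a5*, the light chain of the large neutral amino acid transporter, was at 1436, 2667, 2672 and 2123 in WT and 3503, 4588, 4918 and 4415 in Het (log2 fold change 0.97 ± 0.19 (SE), adjusted p = 0.0461), and its heavy chain *Slc3a2* rose by 0.63 ± 0.07. The cationic transporter *Slc7a3* (1.66 ± 0.26) and the glycine transporter *Slc6a9* (1.08 ± 0.14) were the others. *Slc7a11*, the cystine importer, had a large difference that missed the threshold (log2 fold change 1.53 ± 0.41 (SE), adjusted p = 0.0876, and 0.0039 with the block). The transporter called lower with the block was *Slc38a2* (log2 difference −0.36, adjusted p = 0.0398 with the block).

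Amino acid and one-carbon enzymes gave 7 rises and no fall among 19, with 17 positive differences and a median of 0.32. The serine pathway rose at each of its steps, *Phgdh* (0.74 ± 0.15), *Psat1* (0.64 ± 0.12) and *Psph* (0.47 ± 0.07), together with *Shmt2*, the mitochondrial enzyme that takes 1 carbon unit from serine (0.32 ± 0.06). *Asns*, asparagine synthetase, was at 3244, 4739.6, 4502 and 3931 in WT and 6552, 6011, 6547 and 5901 in Het (log2 fold change 0.61 ± 0.11 (SE), adjusted p = 0.0434), without overlap. *Cth*, of cysteine synthesis (1.35 ± 0.25), and the aspartate transaminase *Got1* (0.56 ± 0.08) also rose. *Mthfd2* and *Gpt2* were called with the block alone (adjusted p = 0.051 and 0.0581 without it).

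The tRNA synthetases, which charge tRNAs with amino acids, were examined by compartment. Of 20 cytosolic enzymes 4 rose, namely *Wars* (log2 fold change 0.64 ± 0.06 (SE), adjusted p = 0.00418), *Aars* (0.45), *Nars* (0.34) and *Sars* (0.45), 19 had positive differences, and 10 were called higher with the block. Of 17 mitochondrial enzymes none was called by either fit, and 10 had positive differences (median 0.05 against 0.23). Whether the 2 families differ was not tested.

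Among the eIF2α kinases and phosphatase subunits 1 of 6 was called, the inducible phosphatase subunit *Ppp1r15a* already named. Of 5 secreted stress factors *Gdf15*, a cytokine of the TGFβ superfamily, rose from 109 ± 14.4 (SD, n = 4) to 247 ± 40.6 (log2 fold change 1.18 ± 0.15 (SE), adjusted p = 0.011), while *Fgf21* had a difference of 0.79 ± 0.33 (adjusted p = 0.212) and *Adm2* was called with the block alone.

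Of 29 genes of the ER UPR 2 rose and none fell, beside 1.42% of all tested genes that rose, and the median difference was 0.02. They were the stress sensor *Ern1*, which encodes IRE1α (log2 fold change 0.56 ± 0.08 (SE), adjusted p = 0.0128), and *Edem1*, of ER-associated degradation (0.33 ± 0.05). The chaperones BiP and GRP94 showed no difference beyond the spread. *Hspa5* was at 29083 ± 2286 in WT and 30806 ± 4032 in Het (adjusted p = 0.703), and *Hsp90b1* at 39736 ± 4083 and 40326 ± 5613 (adjusted p = 0.95, all SD, n = 4). *Hyou1* and *Atf6b* were called with the block alone.

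Among 12 genes of the mitochondrial UPR, *Hspa9* rose, which encodes the matrix chaperone mt-HSP70. *Hspa9* was at 8034, 7968, 8176 and 7503 in WT and 13240.0, 13322, 14099 and 13110.1 in Het (log2 fold change 0.76 ± 0.06 (SE), adjusted p = 0.00148). The lowest Het culture was above the highest WT culture by more than the whole WT range. The matrix chaperonins were higher by less, *Hspd1* by 0.21 ± 0.05 (adjusted p = 0.0777, and 0.0472 with the block) and *Hspe1* by 0.23 ± 0.07 (adjusted p = 0.125). The proteases *Lonp1* (0.21) and *Clpp* (0.12) did not pass, and *Yme1l1*, another protease, was called lower with the block alone. All 13 mitochondrially encoded mRNAs had negative differences (median −0.29) with none called, and 1 (*mt-Nd2*) was called lower with the block. Ribosomal protein genes had 76 of 78 positive differences of a small size (median 0.15), none called, and 9 called higher with the block, and their many processed copies in the genome may share reads.

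**Figure D2:**
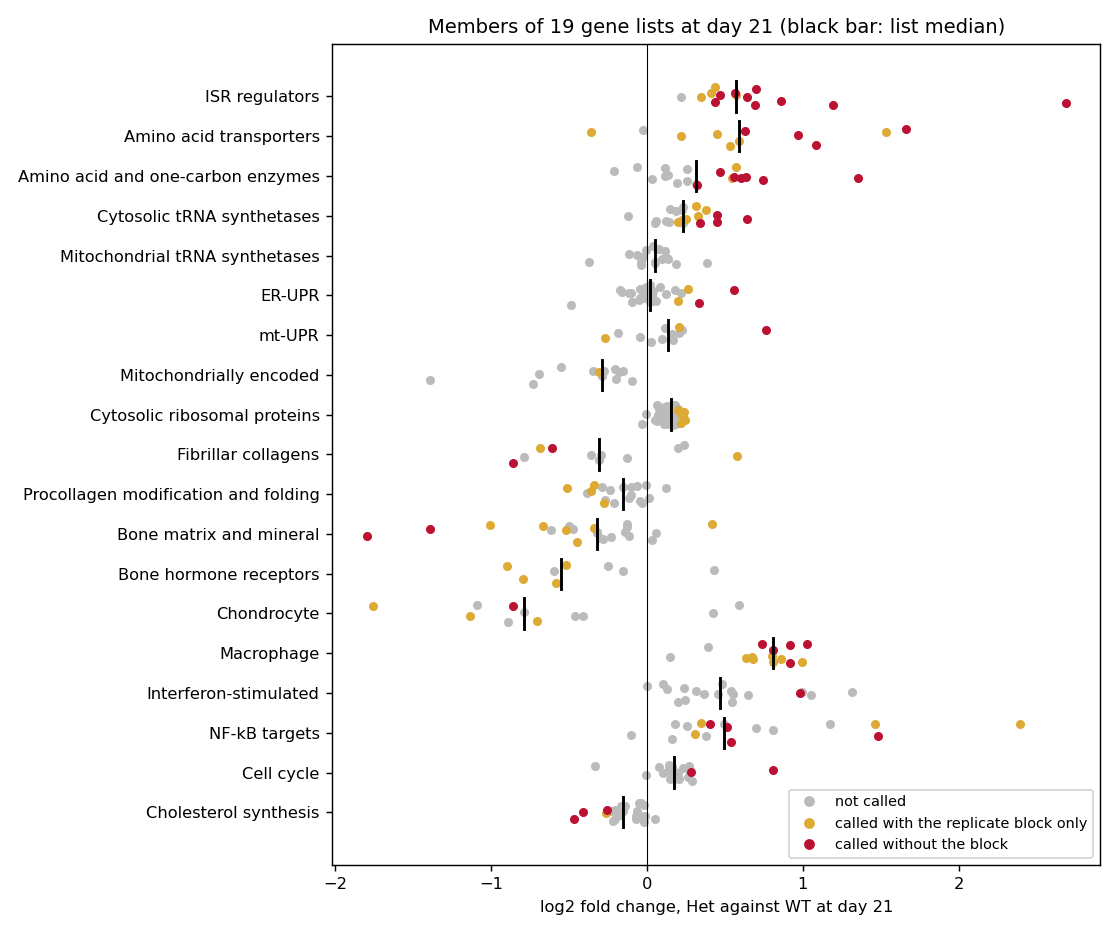
Log2 fold change (Het over WT, day 21) of each tested gene in 19 gene groups, one line a group, in red where called, in gold where called with the replicate block alone, and in grey otherwise, with the median in black. ISR regulators (median 0.57) and macrophage markers (median 0.81) lie to the right of 0, and chondrocyte markers (median −0.79) to the left.

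A set of 27 marker genes named in the study was compiled here, and a rule after the study's own for cultured cells was applied to it. A gene counts as changed when the ratio of mean RQ is above 1.2 or below 0.8 with a p below 0.05. With an exact two-sided permutation test, in which 4 against 4 libraries cannot give a p below 0.0286, 16 of the 27 met this rule, 14 higher and 2 lower, where 7.54% of tested genes met it, 4.5% upward and 3.04% downward. Most of the 27 are markers that the study names for its cultured cells, which include these samples, so their direction here is not independent evidence. The higher genes were *Hspa9* (1.70-fold) and *Atf5* (1.62), the ISR genes *Trib3* (6.46), *Ddit3* (2.28), *Nupr1* (1.49), *Eif4ebp1* (1.48) and *Eif3c* (1.35), and the ER factor *Creb3l1* (1.25). They also included *Cyb5r1*, a reductase (2.40), *Gpt2* (1.49), *Shmt2* (1.25), *Asns* (1.52), *Avil* (10.01) and *Rcc2*, a regulator of chromosome condensation and adhesion (1.75). The lower genes were *Bglap* (0.289) and the Wnt co-receptor *Lrp5* (0.616). For *Creb3l1* the study, with the days combined, describes a smaller increase that it did not mark as significant.

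*Atf6*, *Hspd1*, *Hspe1*, *Dnaja3* and *Lonp1* had the smallest possible p but ratios above 1 and below 1.2. *Atf4* (1.16-fold, p = 0.0857), *Hspa5* (1.06, p = 0.571), *Hsp90b1* (1.01, p = 0.771), *Xbp1* (0.936, p = 0.114), *Clpp* (1.08, p = 0.200) and *Trap1* (1.07, p = 0.114) did not pass the exact permutation test. In edgeR's fit 11 of the 27 were called higher and 1 lower. *Lrp5* was not among them (log2 fold change −0.70 ± 0.18 (SE), adjusted p = 0.0729, and 0.0328 with the replicate block), nor were *Creb3l1* (log2 fold change 0.32 ± 0.09 (SE), adjusted p = 0.0963, and 0.0304 with the replicate block), *Gpt2* or *Nupr1*.

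Transcripts of type I collagen itself had negative differences that did not pass the test. *Col1a2* (ENSMUSG00000029661.16, chr6:4504814-4541544, plus strand), the mutated gene, was at 3043394, 2979078, 3217632 and 3013905 in WT and 2821642, 2412577, 2484589 and 1852026 in Het (log2 fold change −0.36 ± 0.13 (SE), adjusted p = 0.159). All Het cultures lay below all WT cultures. *Col1a1* had a log2 difference of −0.31 ± 0.12 (adjusted p = 0.178). In both, replicates 2 to 4 were at 0.733 and 0.776 of WT and the replicate 1 pair at 0.927 and 0.918. Gene counts do not tell the G610C allele from the normal one.

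Of 11 fibrillar collagen genes, 2 minor ones fell. *Col24a1* was at 9383, 10677, 11139 and 9986 in WT and 6147, 7028, 7144 and 6700.3 in Het (log2 fold change −0.61 ± 0.08 (SE), adjusted p = 0.0106), with a ratio of 0.655 in the replicate 1 pair and 0.656 in the others. *Col11a2* fell by 0.86 ± 0.15 on the log2 scale (adjusted p = 0.0335), to 0.746 of WT in the replicate 1 pair and 0.490 in the others, and is also a cartilage gene. With the block *Col11a1* was called lower too and *Col5a3* higher. None of 19 genes of procollagen modification and folding was called, though 17 had negative differences (median −0.16), and 4 were called lower with the block, namely *P3h4*, *Fkbp14*, *Fkbp7* and *Plod2*. Of 14 genes of ER export and 12 of collagen cleavage and crosslinking none was called. With the block 1 and 2 were called lower, where 4.56% of all tested genes were.

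Bone matrix and mineral genes gave 2 falls in 22, those of *Bglap* and *Bglap2*, where 0.551% of all tested genes fell. Differences were negative for 19 of the 22, where 47.4% of all tested genes had positive ones, and the median was −0.32. The median was −0.10 in the replicate 1 pair, with 10 of 22 positive, and −0.46 in replicates 2 to 4, where 13 were called lower beside 15.5% of all genes. *Ibsp*, bone sialoprotein (−0.61 ± 0.41, adjusted p = 0.422), *Alpl*, the phosphatase that frees phosphate for mineral (−0.50 ± 0.24, adjusted p = 0.276) and *Sparc*, osteonectin (−0.28 ± 0.16, adjusted p = 0.336) did not pass. With the block 7 were called lower, among them *Ifitm5*, whose mutations cause another form of osteogenesis imperfecta (−0.52, adjusted p = 0.0357), *Phospho1* (−0.34, adjusted p = 0.0363) and *Spp1*, osteopontin (−0.67, adjusted p = 0.0182), and 1 higher, *Slc20a1*. Of 13 OB transcription factors none was called and 10 were lower on average, with *Lef1* and *Mef2c* called lower with the block. *Runx2* had a difference of −0.40 ± 0.13 and *Sp7* of −0.35 ± 0.11.

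Among osteocyte markers 1 of 9 was called, a rise of the receptor phosphatase *Ptprz1* (log2 fold change 0.49 ± 0.09 (SE), adjusted p = 0.0439), and none of 8 receptors for bone hormones. With the block 4 receptors were called lower, *Esr1* for oestrogen (−0.80), *Vdr* for vitamin D (−0.90), *Ghr* for growth hormone (−0.58) and *Pth1r* for parathyroid hormone (−0.52). Their group's median was −0.10 in the replicate 1 pair and −0.73 in replicates 2 to 4. The Wnt group gave no call in 39 genes, and 2 higher and 8 lower with the block, including *Lrp5*, *Lgr4*, *Dkk1* and *Wif1*. The BMP and TGFβ group gave 1 fall in 34, where 0.551% of all tested genes fell. It was that of the BMP antagonist *Chrdl1* (log2 fold change −0.51 ± 0.09 (SE), adjusted p = 0.0369). With the block 3 were called higher and 8 lower. Of 11 genes of IGF signalling *Igfbp6*, which binds IGF2, rose (log2 fold change 1.19 ± 0.15 (SE), adjusted p = 0.0102).

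Markers of other cells of the calvaria moved with genotype as well, and in bulk RNA fewer cells of a type and less RNA per cell cannot be told apart. Summed normalised counts of 14 macrophage markers were 146828, 151593, 164683 and 142271 in WT and 187397, 263027, 260449 and 415289.5 in Het. Every Het culture was above every WT culture, least in replicate 1 and most in replicate 4. Of the 14 markers 5 rose, all 14 had positive differences (median 0.81), and 12 were called higher with the block. *Cd68*, a lysosomal glycoprotein, rose by 0.74 ± 0.13 (adjusted p = 0.0403), the complement genes *C1qa*, *C1qb* and *C1qc* by 1.03, 0.92 and 0.92, and the adaptor *Tyrobp* by 0.81. The median was 0.29 in the replicate 1 pair and 0.94 in replicates 2 to 4. Without Het replicate 4, *Cd68* had a difference of 0.60 (adjusted p = 0.0414) and *C1qa* of 0.80 (adjusted p = 0.0444), but each kept its call in only 3 of 12 fits that left out a library or a replicate pair. The ISR genes *Atf5* and *Asns* and the transporter *Slc7a5* also kept theirs in 3 of 12, where *Trib3* and *Ddit3* did in all 12. With TMM 1 of the 14 markers was called, and all 14 were positive in replicates 2 to 4 and 13 in the replicate 1 pair.

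Chondrocyte markers went the other way, and in 3 of the 4 pairs. Their sum was 344025, 211093, 224699.5 and 278295 in WT and 340576, 91254, 88720.0 and 66976 in Het. Het replicate 1 was close to its WT partner, and the other 3 Het cultures were far below all WT cultures. The median of 11 markers was 0.03 in the replicate 1 pair and −1.75 in replicates 2 to 4, where 10 were called lower beside 15.5% of all genes tested in that fit. Over all 8 libraries *Col11a2* was called, and 4 markers with the block. *Acan*, the cartilage proteoglycan aggrecan, was at 11993, 10138, 10388 and 11062 in WT and 12242, 3399, 3108 and 1779 in Het (log2 fold change −1.09 ± 0.52 (SE), adjusted p = 0.264). *Col10a1*, of hypertrophic chondrocytes, was at 1787, 1445, 1231 and 1411 and 1184, 235, 243 and 171 (log2 fold change −1.76 ± 0.57 (SE), adjusted p = 0.128, and 0.0278 with the replicate block). *Matn1* had a log2 difference of 0.42 over all pairs and −2.22 without replicate 1.

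Among other markers, endothelial transcripts summed to 121 to 166 in WT and 127 to 163 in Het, near nothing in both, and 3 of 6 neutrophil markers were at 0 in all 8 libraries. None of 9 osteoclast, 11 smooth muscle, 6 fibroblast, 5 adipocyte and 4 skeletal muscle genes that could be tested was called. With the block 1 smooth muscle gene was called lower and 1 fibroblast gene higher, beside 4.56% and 5.35% of all tested genes. The parts that macrophage and chondrocyte transcripts have in the differences of OB genes were not tested.

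Interferon-stimulated genes also split by replicate. Of 18, 1 rose, where 1.42% of all tested genes did. It was *Oas1a*, a sensor of double-stranded RNA (log2 fold change 0.98 ± 0.20 (SE), adjusted p = 0.0481). All 18 had positive differences (median 0.47), where 47.4% of all tested genes did. The median was −0.43 in the replicate 1 pair and 0.72 in replicates 2 to 4. NF-κB targets gave 4 rises in 17, *Relb* (0.51 ± 0.08), *Nfkb2* (0.40 ± 0.06), the neutrophil attractant *Cxcl1* (1.48 ± 0.23) and the adhesion molecule *Icam1* (0.54 ± 0.11), and 8 with the block. Cell cycle genes gave 2 rises in 25, *Rcc2* (log2 fold change 0.81 ± 0.12 (SE), adjusted p = 0.0233) and the replication helicase subunit *Mcm7* (0.28 ± 0.05). Their median was −0.17 in the replicate 1 pair and 0.29 in replicates 2 to 4, where 21 were called higher beside 11.7% of all genes tested in that fit. For all 3 groups, as for the macrophage markers, the summed counts of Het replicate 1 were the lowest of the Het cultures, and the part of macrophages in them was not tested. The ISR regulators had a median of 0.58 in the replicate 1 pair and 0.52 in replicates 2 to 4.

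**Figure D3:**
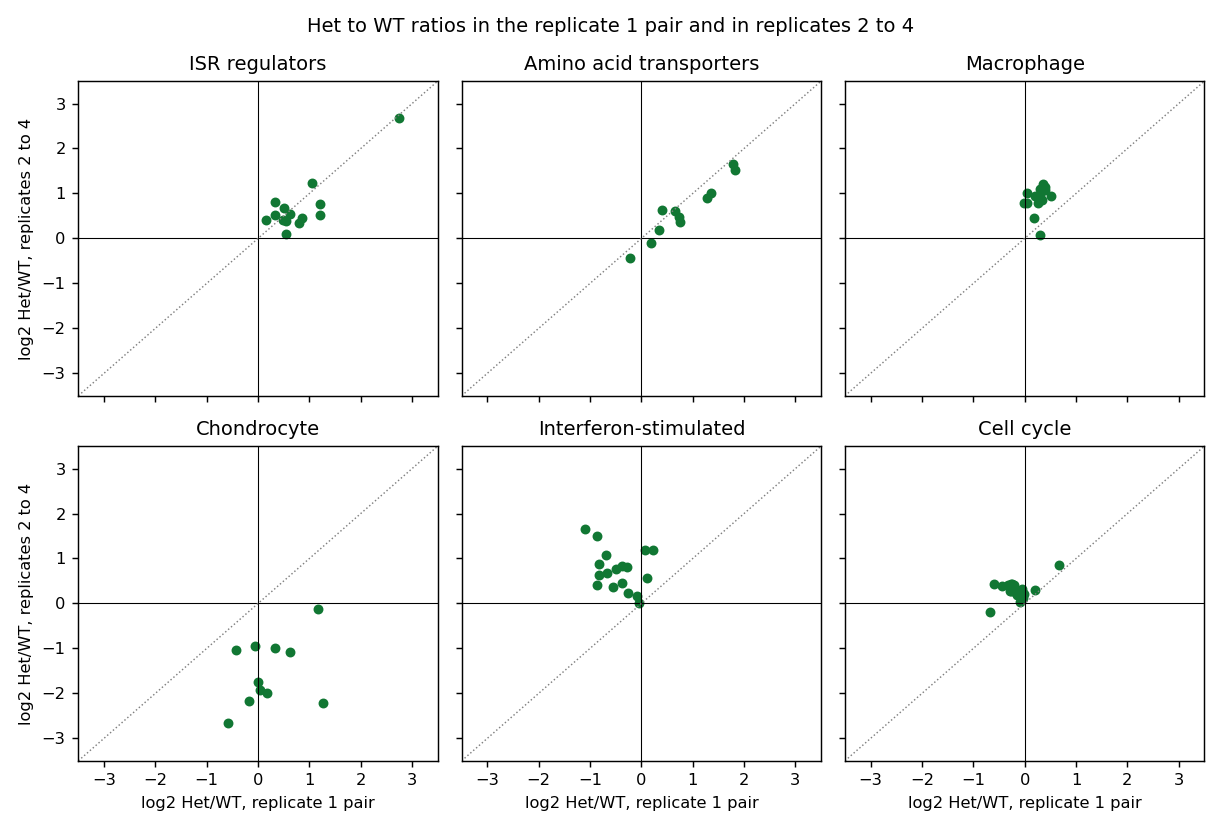
Log2 ratio of Het to WT in the replicate 1 pair (horizontal axis) and in replicates 2 to 4 (vertical axis) for the members of 6 gene groups, one point a gene. ISR regulators are positive on both axes, and chondrocyte markers lie near 0 on the horizontal axis (median 0.03) and below 0 on the vertical axis (median −1.75).

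Because a knock-in allele is carried with its flanking chromosome when it is bred onto another strain, genes within 5 Mb of the start of *Col1a2* on chromosome 6 were examined. Of 42 tested, 1 rose and 3 fell, 7 had positive differences where 47.4% of all genes did, and the median was −0.25. The fallers were *Peg10*, a paternally expressed gene 0.24 Mb away (log2 fold change −0.81 ± 0.14 (SE), adjusted p = 0.0363), *Gm20559* and *Gm43921*, the last starting just after the start of *Col1a2*, so that reads may be shared between them. The gene that rose was *Asns*, 3.17 Mb away. With the block 1 was called higher and 13 lower. Within 2 Mb, 24 were tested, 3 fell, and the median was −0.35. Sequence differences of the flanking region were not examined, and the part of the allele, its flank and the response to it cannot be told apart.

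**Figure D4:**
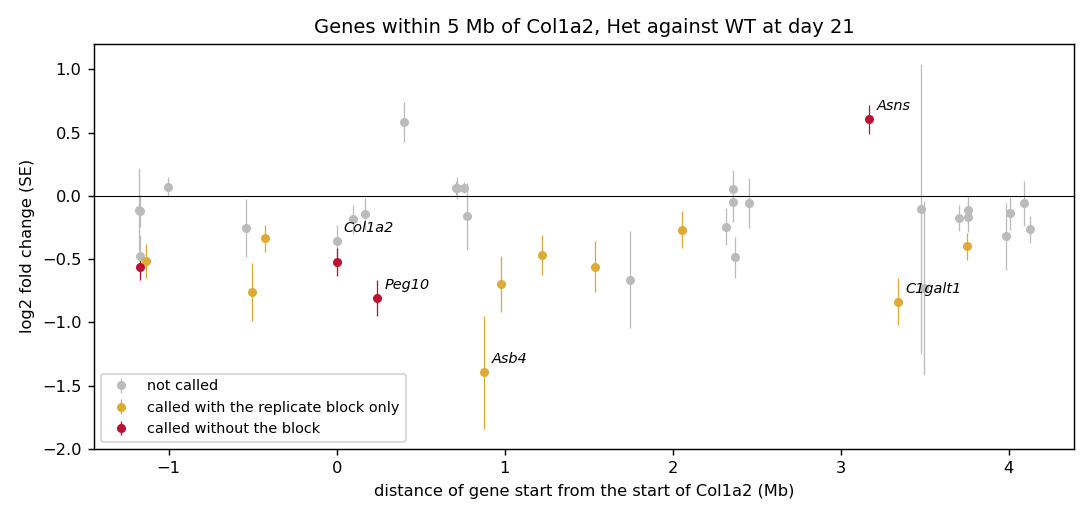
Log2 fold change ± SE (Het over WT, day 21) of the 42 tested genes within 5 Mb of the start of *Col1a2*, against the distance from that start in Mb, with called genes in colour. Most points are below 0, and of the 4 called genes *Asns* alone is above it.

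The genotype effect was set against that at the earlier days, in which the same comparison was made with 4 Het and 4 WT libraries each. By the same fit 16 genes were higher and 18 lower at day 14, and 0 and 0 at day 8, where 540 and 1277 had an unadjusted p below 0.05. Of the genes called higher at day 21, 256 of 259 tested were also positive at day 14 and 168 of 244 at day 8, and of those called lower 100 of 101 and 84 of 92 were negative. Of all genes tested at day 21, 6461 of 18159 were positive at day 14 and 5440 of 17720 at day 8, so most genes were negative at both days. The study describes each experiment as seeding wells for every day, so wells of different days share pools of pups. Agreement between days is therefore not independent support. The fit of all 24 libraries treats these wells as separate samples. When the difference between effects was tested, 0 of 20434 genes passed between day 21 and day 14 (384 and 68 at an unadjusted p below 0.05, and 0 with DESeq2's Wald test), and 9 (0.044%) between day 21 and day 8, all with a more positive effect at day 21.

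*Trib3* had log2 fold changes of 0.57 ± 0.21 at day 8, 2.87 ± 0.25 at day 14 and 2.69 ± 0.11 at day 21, with a difference between day 21 and day 8 of 2.09 ± 0.30 (adjusted p = 0.00928). *Ddit3* had 0.0013 ± 0.15 at day 8 and 1.19 ± 0.08 at day 21 (difference 1.19, adjusted p = 0.0347), and *Avil* −0.39, 3.18 and 3.30 (difference 3.70, adjusted p = 0.039). The effects of all 3 at day 14 were near those at day 21. The other entries included *Cdsn*, *Car6*, the second *Ddit3* entry and the transcripts *Gm14137* and *Galnt6os*, the last of which was not itself called at day 21. No gene passed when replicate 2, 3 or 4 was left out. *Bglap* was at −0.81 ± 0.57 at day 8 and −1.29 ± 0.66 at day 14, and its difference from day 21 did not pass in either comparison. Macrophage markers had medians of 1.45 at day 8, 1.24 at day 14 and 0.81 at day 21, and chondrocyte markers −1.09, −0.80 and −0.79.

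**Figure D5:**
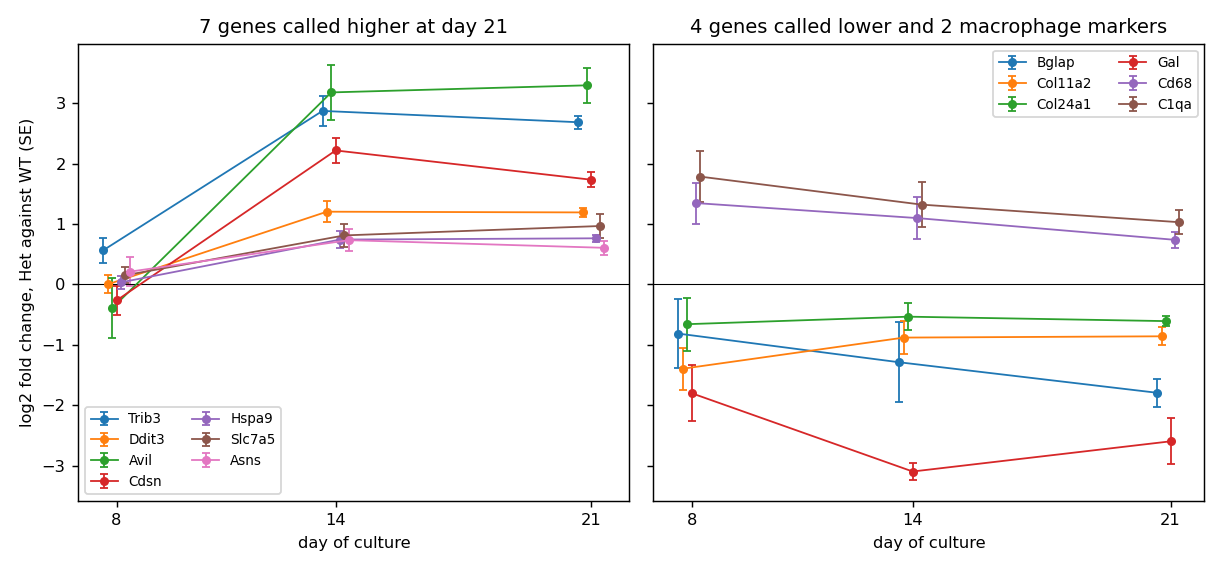
Log2 fold change ± SE (Het over WT) of 7 genes called higher at day 21 (left) and of 4 called lower and 2 macrophage markers (right) at days 8, 14 and 21, 4 libraries per genotype and day. *Trib3* stands at 0.57 at day 8, 2.87 at day 14 and 2.69 at day 21, *Avil* is below 0 at day 8 and above 3 at days 14 and 21, and *Cd68* and *C1qa* are above 0 at all 3 days.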

How the data were processed

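RNA was prepared with a TruSeq kit. Per the labels' processing notes, cutadapt 2.5, STAR 2.73a (as written there), Subread featureCounts 1.6.4 and mm10 were used, and the authors deposited 1 file of raw read counts per gene for each library. The strand setting is not given in the sources used here. All 55335 gene entries were read, and 54587 identifiers matched GENCODE M21 (GRCm38), which gave coordinates.

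The 8 libraries of day 21 were fitted with edgeR 4.0.16 (quasi-likelihood test on the counts, filterByExpr, R 4.3.3), the housekeeping scale as library size, no block, and Benjamini-Hochberg adjustment over all tested genes at 0.05. Differences between days were interaction terms in a fit of all 24 libraries, which shared an estimate of spread. Means of RQ were compared by exact permutation tests over the 70 regroupings of 4 against 4. No set test was run, and groups of genes are given by counts and medians. Genes were named singly where they were among the 10 largest rises or falls with a mean of at least 50 counts and no overlap, the most significant 4 or most abundant members of a group, a marker of the study or of a cell type, or past the threshold in a difference between days. Other members of groups, most of them called in either fit, were named after their values were seen. 1 gene past the threshold in the difference between days 21 and 8 is not reported here. The genes and groups were chosen with earlier results of these data known.

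Alternatives were TMM, DESeq2 1.42.0 size factors and total counts as scale, DESeq2's Wald test, no filter, at least 10 counts in 4 libraries, the spread of all 24 libraries, replicate 1 as covariate, the replicate number as block, and leaving out replicates or libraries. Deviations from the genotype means correlated at 0.73, 0.59, 0.57 and 0.24 within same-numbered Het and WT pairs, although among replicates 2 to 4 other pairings gave 0.20 to 0.53. The numbers were taken to pair the samples in the replicate block, which the main fit leaves out. Replicates of a genotype differed by 5.7 to 138 times counting error (chi-square per degree of freedom), so none was a copy of another. This does not show that wells from a shared pool are independent, although all libraries were fitted as separate samples. Promoters came from RefSeq (GRCm38.p6). The scripts were tested on simulated data.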

Additional observations from a re-analysis of the deposited data

Results flagged for a closer look

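In 10 of 94 groups of 4 libraries examined, 1 library lay apart from the other 3, judged by its gap to the nearest of them as a share of the whole range of the group, by Dixon's test. Chance gives about 5%. Het replicate 1 was the library apart for *Gal* (highest, 0.874), *Map3k21* (highest, 0.966), *Ostn* (lowest, 0.966) and *Rcc2* (lowest, 0.832). WT replicate 1 was the highest for *Ddit3* (0.836) and *Hspe1* (0.982). The others were *Cox6a2* in Het, lowest in replicate 2 (0.873), *Gm12519* in Het, lowest in replicate 3 (0.938), *Eif3c* in WT, lowest in replicate 4 (0.839), and the share of counts at ribosomal RNA loci in Het, highest in replicate 4 (0.982).

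The genotype effect differed between day 21 and day 8 by the test of that difference for 9 gene entries. On the log2 scale the effect at day 21 exceeded that at day 8 by 4.42 for *Car6*, 3.70 for *Avil*, 2.55 for *Galnt6os*, 2.09 for *Trib3*, 2.00 for *Cdsn*, 1.41 for *Gm14137*, and 1.26 and 1.19 for the *Ddit3* entries. *Galnt6os* had an effect of −2.32 at day 8 and 0.23 at day 21, and was at 164, 161, 156 and 169 in the WT cultures of day 21, which overlapped the Het cultures at 156, 205, 207 and 192.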

How the results depend on the processing

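The number of calls depended on the scale, the model and the libraries. Genes higher and lower numbered 265 and 103 as reported, 228 and 259 with TMM, 268 and 260 with DESeq2's size factors, 856 and 254 with total counts, 133 and 53 with the spread of all 24 libraries, 1676 and 1563 with replicate 1 as a covariate, 999 and 851 with the replicate block, and 1248 and 664 with DESeq2's Wald test. Without a filter on low counts they were 224 and 74. Leaving out a replicate pair gave from 4 to 2186 higher and from 0 to 2904 lower (739 without replicate 3 and 804 without replicate 4 at an unadjusted p below 0.05, where none was called), and leaving out 1 library gave from 17 (without WT replicate 4) to 1603 (without Het replicate 1) higher and from 3 to 2357 lower. Apart from the construction with fewer samples, the cause was not tested.

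Of 73 called genes examined singly, 63 kept their call with TMM, 64 with DESeq2's size factors, 71 with total counts, 32 with the spread of all 24 libraries, and 73 with the block, which added 18. *Trib3*, *Cdsn*, *Cox6a2* and *Ddit3* kept theirs in all settings run. *Matn1* reversed, from 0.42 as reported to −2.22 without replicate 1 and −2.86 without Het replicate 1, in a range of −2.86 to 1.05 over the libraries left out. The markers changed under the RQ rule numbered 16 as reported and from 10 to 15 without 1 library. Differences between the effects at days 21 and 14 numbered 0 as reported and from 0 to 13 without a replicate pair. Between days 21 and 8 they numbered 9 as reported, 35 with the replicate block, 87 with DESeq2's Wald test and from 0 to 545 without a replicate pair. Within 2 Mb of *Col1a2* 3 genes were called against 4 within 5 Mb.

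Shallower replicate 1 libraries limit genes of low count such as *Car6* and *Ostn*, and 4 cultures a genotype from shared pools of pups limit what p-values cover.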

Other observations

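Several other gene groups held a few changes. Immediate early genes gave 4 rises among 12, *Fos* (0.71 ± 0.09 SE, log2), *Ier2* (0.62 ± 0.08), *Egr1* (0.51 ± 0.10) and *Junb* (0.48 ± 0.10), with a median of 0.36, where 1.42% of all tested genes rose. The group was listed as sensitive to harvest, and the part of handling in these rises was not tested. *Fos* was at 335, 287, 314 and 309 in WT and 456, 538, 507 and 531 in Het. Of 17 genes of cell death and survival, *Cdkn1a*, the cell cycle inhibitor p21 (log2 fold change 0.51 ± 0.06 (SE), adjusted p = 0.00972), and *Pmaip1*, the BH3 protein NOXA (0.80 ± 0.15), rose. In the gelsolin family *Capg* (0.41 ± 0.08), which caps actin filaments and is abundant in macrophages, rose beside *Avil*, 2 of 7 genes tested.

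Genes of cholesterol synthesis gave 3 falls in 23, *Hmgcs1* (−0.41 ± 0.05), *Insig1* (−0.47 ± 0.09) and *Stard4* (−0.25 ± 0.05), with 22 negative differences and a median of −0.15. *Hmgcs1* was at 9127, 9236, 8807 and 8753 in WT and 6742, 6582, 6989 and 6768 in Het, without overlap. Glycolysis gave 1 fall in 21, that of *Aldoc* (−0.85 ± 0.17), with a median of −0.21, and none of 12 hypoxia genes was called. Among 18 antioxidant genes *Gpx3* fell (−0.60 ± 0.09). Of 14 imprinted growth genes *Peg10* alone fell, 13 had negative differences (median −0.36), and 5 were called lower with the replicate block, among them *Peg3* (−1.13 ± 0.26, adjusted p = 0.0342) and *H19* (−0.41 ± 0.20, adjusted p = 0.0466). None of 26 autophagy, 23 lysosome, 16 cytosolic heat shock and 38 proteasome genes was called. With the block 1, 1, 1 and 2 of them were called higher and 1, 0, 1 and 0 lower. Over all tested genes the block called 5.35% higher and 4.56% lower. Of 81 nuclear genes of the respiratory chain *Cox6a2* alone was called.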
